A study of Caenorhabditis elegans with 33 samples.

Results

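Small RNAs of whole Caenorhabditis elegans were compared between alg-5(ram2) mutants and wild type animals at the late L4 larval stage. The comparison rests on 2 libraries, 1 of each genotype, chosen by genotype and stage out of 18 small RNA libraries and 33 samples in all. The study measured small RNA and long RNA in animals with mutated or tagged ALG-1, ALG-2 or ALG-5, which are Argonaute proteins. Both L4 libraries were made from worm lysates collected 49 h after L1 synchronisation at 20 °C on Escherichia coli OP50. The mutant genotype is written alg-5(ram-2) I on the small RNA sample and alg-5(ram2) I on the long RNA samples, and the labels do not describe the lesion. Wild type was the N2 strain. A further L4 strain, with GFP::3xFLAG and a loxP site at alg-5 on chromosome I (allele ram-1), was collected at the same stage and gave an input library and an anti-GFP immunoprecipitate library, called GFP::ALG-5 here. Gravid adults, collected at 68 h, served for comparison: 1 library of alg-5(tm1163) I, 1 input and 1 anti-HA immunoprecipitate library of a strain that carries alg-5(tm1163) I with the transgene alg-5::3xHA::alg-5 II, called HA::ALG-5 here, and 3 libraries of N2. Long RNA of L4 animals came as 3 libraries each of alg-5(ram2) I and N2, collected at 49 h. The fit of these values also held 3 libraries each of alg-5(tm1163) I and alg-2(ok304) II at 49 h and of alg-1(gk214) X at 53 h, the age at which that mutant reached the same stage.

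Argonaute proteins hold a small RNA and use it to find complementary transcripts. In C. elegans, ALG-1 and ALG-2 carry most miRNAs, and ALG-5 is a related protein found largely in the germline. The worm also makes 21U RNAs, the piRNAs bound by the Piwi protein PRG-1, and secondary siRNAs that RNA-dependent RNA polymerases copy from target transcripts. These siRNAs differ by the proteins they need: those bound by CSR-1 match most genes expressed in the germline, and those that need the Mutator proteins match transposons, pseudogenes and silenced genes. No mature small RNA sequence is shown, since none of the tables used here holds them.

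The siRNAs that match alg-5 itself were present in wild type and not detected in the mutant. The alg-5 gene (T23D8.7) is in the table of CSR-1 siRNA targets, where it had 0 reads in alg-5(ram2) L4 and 237 reads, or 10.9 RPM, the reads scaled to the size of the library, in wild type L4. A count of 0 allows up to 3 reads, or 0.136 RPM, and against that floor the level was at least 79.9-fold lower in the mutant library. The exact 95% upper limit of the read ratio, which also covers the counting error of wild type, was 0.0155. At L4 the GFP::ALG-5 input had 13.5 RPM. Of 16 CSR-1 targets with 0 reads in the mutant and at least 1 in wild type, alg-5 had by far the most wild type reads, and the next had 30. This row was singled out after its values were seen, and its mean is below the minimum for the counts of rows given further on. Adult alg-5(tm1163) animals had 37.8 RPM, against 20.4, 24.7 and 31.4 RPM in adult wild type libraries. The alg-5 transcript had 0.557, 0.996 and 0.607 FPKM, a level scaled to transcript length and library size, in alg-5(ram2) L4 and 9.75, 8.03 and 10.3 FPKM in wild type L4. Their limma difference was -2.59 ± 0.257 (SE) on the log2(FPKM + 1) scale, with a Benjamini-Hochberg adjusted p of 0.000702. When the fit held only the alg-5(ram2) and wild type libraries, the limma adjusted p was 0.0444.

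The alg-5(ram2) library held 22003304 reads and the wild type library 21758645 reads, so that 1 read was worth 0.0454 RPM in the mutant and 0.0460 RPM in wild type. The 4 small RNA tables list 368 miRNAs, 15366 21U RNAs, 3639 CSR-1 siRNA targets and 2434 Mutator siRNA targets. With 1 library of each genotype there is no replicate check and no test of any small RNA difference. Ratios are given with exact 95% intervals of the read ratio, which cover counting error only, because reads of amplified libraries without molecular identifiers are not independent molecules. A row is called past 2-fold when its log2 ratio, with 0.1 RPM added to both levels, was 1 or more in size and its mean over both libraries was at least 10 RPM. Whole worms were used, so fewer cells of a type and less RNA per cell cannot be told apart.

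The 21U RNAs were lower in alg-5(ram2) as a class, while the sums of the other classes were slightly above wild type. 21U RNAs summed to 8179 RPM in alg-5(ram2) and 11389 RPM in wild type, a ratio of 0.718 (95% interval 0.714 to 0.723). For the GFP::ALG-5 input the sum was 10744 RPM, and the ratio of alg-5(ram2) to it was 0.761. miRNAs summed to 322902 RPM in alg-5(ram2) and 271645 RPM in wild type, a ratio of 1.19. CSR-1 siRNAs summed to 58012 RPM in alg-5(ram2) and 51462 RPM in wild type, a ratio of 1.13. Mutator siRNAs summed to 320178 RPM in alg-5(ram2) and 307271 RPM in wild type, a ratio of 1.04. The 21U difference kept its direction against either L4 library, whereas the CSR-1 and Mutator ratios turned to 0.967 and 0.924 against the GFP::ALG-5 input. In adults, the ratio of alg-5(tm1163) to wild type library 3, which carries the same experiment number in the table headers, was 0.921 for 21U RNAs and between 0.998 and 1.03 for the other classes. Class sums also differed between adult wild type libraries 1, 2 and 3, which come from different experiments. They were 36146, 23455 and 35533 RPM for 21U RNAs and 100088, 115084 and 202041 RPM for CSR-1 siRNAs. miRNA sums were 191222, 186254 and 175637 RPM, and Mutator sums 425701, 363456 and 348647 RPM.

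**Figure D1:**
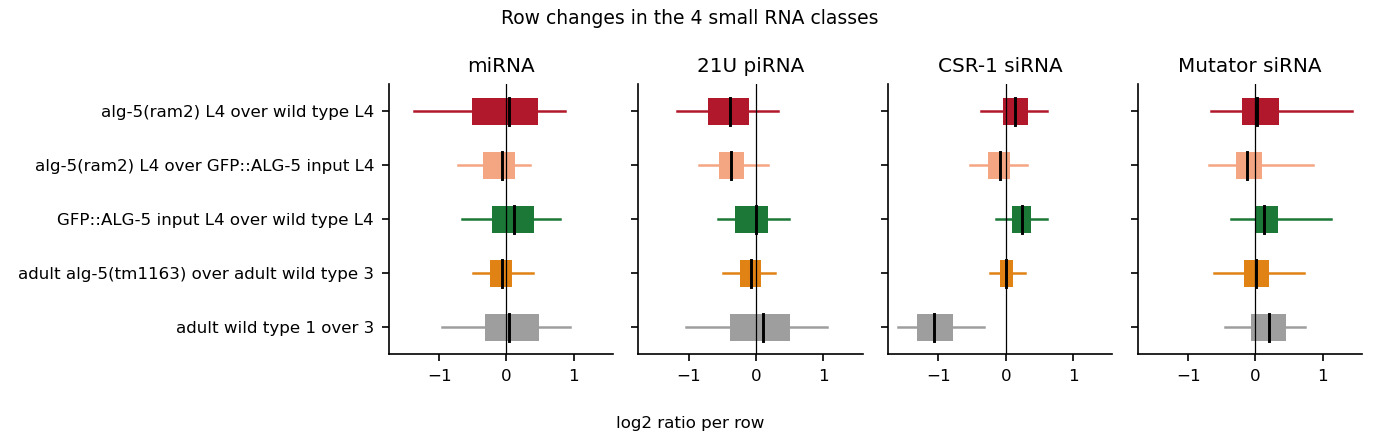
Log2 ratio per row in each small RNA class, for rows with a mean of at least 10 RPM in the pair of libraries. Boxes span the interquartile range of the rows, black lines mark medians and whiskers run over the 5th to 95th percentile; the 21U boxes of alg-5(ram2) lie below 0 against both L4 libraries, with medians of -0.38 and -0.37.

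Among miRNAs, 18 of the 160 tested lay past 2-fold, or 11.2%. In alg-5(ram2), 7 (4.38%) were higher and 11 (6.88%) were lower. With levels taken as shares of all miRNA reads instead of all library reads, 3 were higher and 25 lower. The median log2 ratio of all 160 was 0.04. Counting error was small at this depth: the interval left out equal levels for all 18 and for 144 of the 160 at any size. Pairs of adult wild type libraries had 13 of 152, 61 of 147 and 71 of 148 miRNAs past 2-fold, that is 8.55%, 41.5% and 48.0%, but these libraries come from different experiments, and library 2, with 1622092 reads, is the shallowest of the 18. Within the L4 experiment, the GFP::ALG-5 input had 3 of 160 past 2-fold over wild type, or 1.88%. For 16 of the 18 miRNAs the GFP::ALG-5 input lay between the alg-5(ram2) and the wild type level. The 18 were chosen as far apart in those libraries, which favours another library lying between them. The share over all 160 was not counted. Set against that input, 2 of 156 miRNAs were past 2-fold in alg-5(ram2), or 1.28%, and both were lower: miR-250-3p and miR-1829b.

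miR-250-3p was the lowest of all tested miRNAs in alg-5(ram2). It had 305 RPM (6715 reads) in alg-5(ram2) and 1413 RPM (30738 reads) in wild type, a log2 ratio of -2.21 (95% interval -2.25 to -2.17). The GFP::ALG-5 input had 1695 RPM, so the mutant level lay below both other L4 whole-worm libraries. The same miRNA was low in the other allele: it had 385 RPM in adult alg-5(tm1163), against 1181, 798 and 1194 RPM in adult wild type. The adult HA::ALG-5 input, which carries the tm1163 allele and a tagged transgene, had 902 RPM. Of 135 miRNAs tested in both alleles, using adult wild type library 3 for the adult pair, miR-250-3p was the 1 that was past 2-fold lower in each. In adults 3 of 151 miRNAs were past 2-fold, or 1.99%.

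The 5p arm of the same hairpin did not follow the 3p arm. miR-250-5p had 172 RPM in alg-5(ram2) and 93.0 RPM in wild type, a log2 ratio of 0.89 (95% interval 0.81 to 0.97), with 108 RPM in the GFP::ALG-5 input. The ratio of the 3p to the 5p arm was 1.77 in alg-5(ram2), 15.2 in wild type and 15.7 in the GFP::ALG-5 input. In adults it was 7.04 in alg-5(tm1163), against 21.2, 12.2 and 19.8 in wild type. Of the 47 hairpins with both arms tested, the mir-250 hairpin had the widest gap between its arms, -3.10 on the log2 scale. In 20 of the 47 the arms differed by at least 2-fold, and the next gaps were -2.19 for mir-52, -2.05 for mir-74 and 1.94 for mir-65. The median log2 ratio over these hairpins was -0.19 for the more abundant arm and 0.16 for the less abundant arm. Arms were ranked by their level in wild type L4, the reference of the same ratio, and this choice favours such a split.

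The GFP::ALG-5 immunoprecipitate measured which miRNAs came down with ALG-5 in L4 animals. Of 152 miRNAs, 20 were at least 2-fold higher in the immunoprecipitate than in its input, or 13.2%, and miR-61-3p, miR-250-3p and miR-51-5p made up 86.4% of its miRNA RPM and 2.14% of that of the input. Of 107 21U RNAs, 1120 CSR-1 targets and 1606 Mutator targets, 0 were enriched to that extent. This list of enriched miRNAs was drawn up after values were seen. miR-250-3p had 244108 RPM in the immunoprecipitate, against 1695 RPM in the input. miR-61-3p had 292786 RPM in the immunoprecipitate, against 1955 RPM in the input. miR-51-5p had 200015 RPM in the immunoprecipitate, against 2990 RPM in the input. Their log2 enrichments were 7.17 for miR-250-3p, 7.23 for miR-61-3p and 6.06 for miR-51-5p, but their levels in the mutant differed. miR-61-3p had 1184 RPM in alg-5(ram2) and 1352 RPM in wild type, a log2 ratio of -0.19 (95% interval -0.22 to -0.17). miR-51-5p had 2256 RPM in alg-5(ram2) and 1983 RPM in wild type, a log2 ratio of 0.19 (95% interval 0.17 to 0.20). Both were lower in alg-5(ram2) than in the GFP::ALG-5 input, by -0.72 and -0.41 on the log2 scale, within 2-fold.

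**Figure D2:**
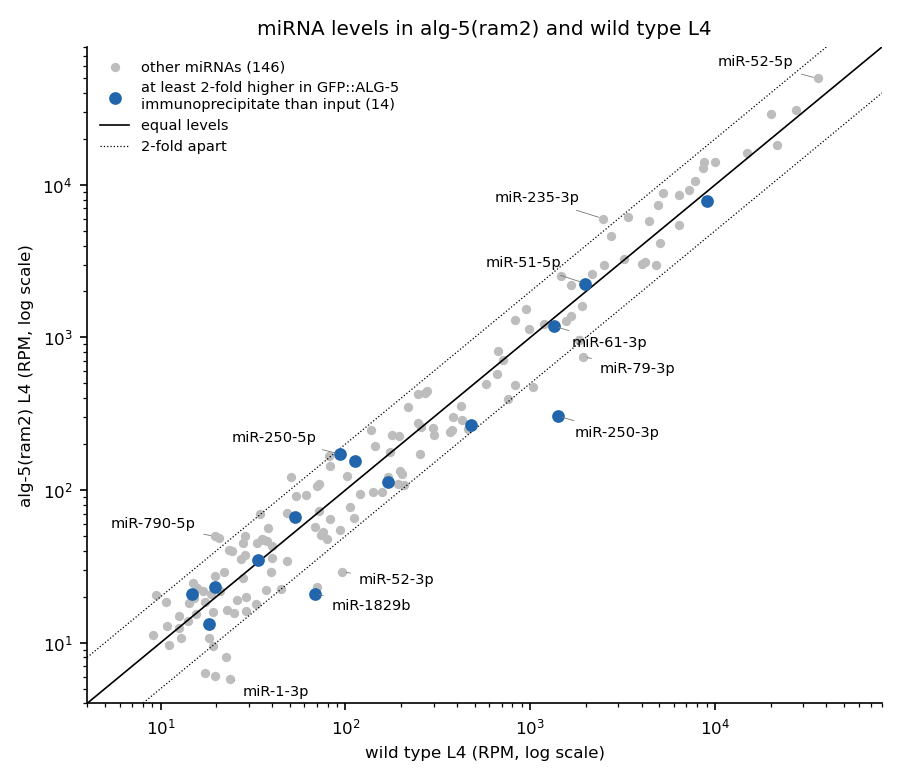
RPM of the 160 tested miRNAs in alg-5(ram2) L4 (vertical, log scale) and wild type L4 (horizontal, log scale), with lines of equal and 2-fold different levels. Of the 14 miRNAs enriched with GFP::ALG-5, shown in blue, miR-250-3p and miR-1829b lie below the lower line.

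Of the 20 enriched miRNAs, 14 reached 10 RPM in the mutant and wild type pair, and 2 of these were past 2-fold lower in alg-5(ram2), none higher. Their median log2 ratio was -0.07, beside 0.09 for the 131 tested miRNAs that were not enriched, of which 6 were past 2-fold higher and 5 lower. Tested miRNAs with a mean below 10 RPM over immunoprecipitate and input are in neither group. Among them were miR-85-5p, miR-2214-3p, miR-67-3p and miR-48-3p, all past 2-fold lower, and miR-74-5p, past 2-fold higher. Against the GFP::ALG-5 input, 2 of 14 enriched miRNAs and 0 of 130 others were past 2-fold lower in alg-5(ram2). miR-1-3p, which was not enriched, stood at -1.04 against the input but fell short of the minimum level in that pair. Against wild type L4, 7 of the 14 enriched miRNAs and 58 of the 131 others were below 0. Against the GFP::ALG-5 input, which also defined the groups, medians were -0.34 (11 of 14 below 0) and -0.05 (72 of 130). In adult alg-5(tm1163) over wild type library 3, medians were -0.27 (14 of 16 below 0) and -0.02 (64 of 117). Besides miR-250-3p, the enriched miRNA past 2-fold lower was miR-1829b, which had 21 RPM in alg-5(ram2) and 68.3 RPM in wild type, a log2 ratio of -1.70 (95% interval -1.86 to -1.55). The GFP::ALG-5 input had 56.3 RPM and the immunoprecipitate 3415 RPM of it. In adults the direction for miR-1829b depended on the wild type library: it had 83.5 RPM in alg-5(tm1163), against 121, 22.8 and 118 RPM in wild type. Its log2 ratios to wild type libraries 1, 2 and 3 were -0.53, 1.87 and -0.50, none past 2-fold lower. Some strongly enriched miRNAs were too rare to be tested. miR-1829c had 1.82 RPM (40 reads) in alg-5(ram2) and 6.11 RPM (133 reads) in wild type, with 1079 RPM in the immunoprecipitate. miR-36-5p had 3.68 RPM in alg-5(ram2) and 9.28 RPM in wild type, with 672 RPM in the immunoprecipitate. Over 145 miRNAs, Pearson's r between the log2 ratio of alg-5(ram2) to wild type and the log2 enrichment with GFP::ALG-5 was -0.19 and Spearman's rho -0.16, a description over miRNAs that share the same libraries.

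**Figure D3:**
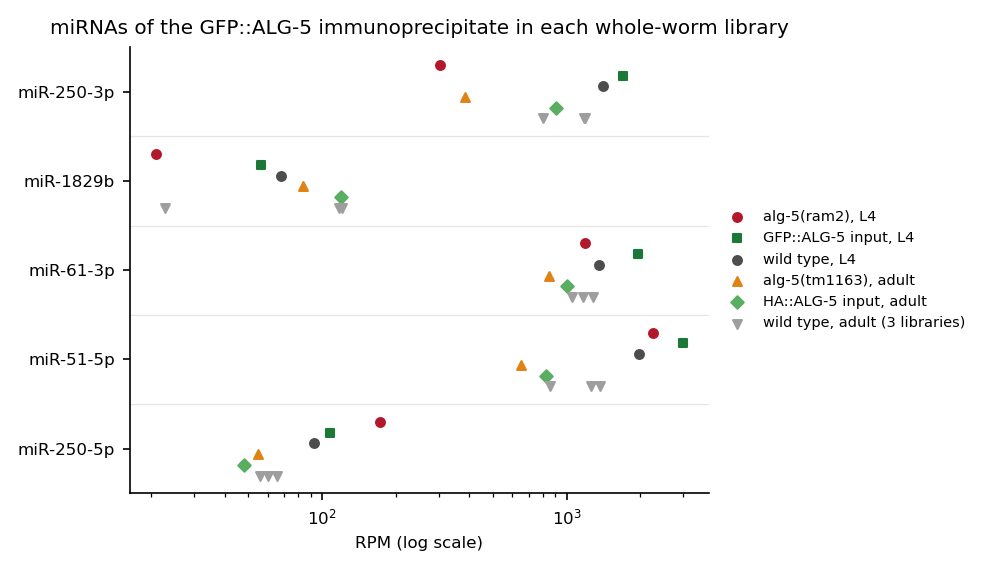
RPM (log scale) of 5 miRNAs enriched with GFP::ALG-5 in each whole-worm library, 1 symbol per library. miR-250-3p is lowest in alg-5(ram2) L4 (305 RPM) and alg-5(tm1163) adults (385 RPM), whereas miR-61-3p and miR-51-5p in alg-5(ram2) lie within 2-fold of both other L4 libraries.

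The other 9 miRNAs past 2-fold lower in alg-5(ram2) all had lower levels in the GFP::ALG-5 immunoprecipitate than in its input. Of the 152 miRNAs with a mean of at least 10 RPM in that pair, 128 did. miR-85-5p, miR-2214-3p, miR-67-3p and miR-48-3p fell short of that mean, with 2.15, 4.31, 0.718 and 2.87 RPM in the immunoprecipitate. In the adult HA::ALG-5 immunoprecipitate 7 of the 9 were above its input, among them miR-2214-3p at 3.00, miR-1-3p at 2.40 and miR-65-5p at 2.35 on the log2 scale. Of the 162 miRNAs with a mean of at least 10 RPM in that adult pair, 64 were above input. miR-85-5p and miR-48-3p fell short of that mean. miR-1-3p, a muscle miRNA, had 5.77 RPM in alg-5(ram2) and 23.9 RPM in wild type, a log2 ratio of -2.03, with 12.0 RPM in the GFP::ALG-5 input. miR-52-3p, the rare arm of an abundant hairpin, had 29.1 RPM in alg-5(ram2) and 96.0 RPM in wild type, with 48.8 RPM in the GFP::ALG-5 input. miR-79-3p had 750 RPM in alg-5(ram2) and 1930 RPM in wild type, with 1321 RPM in the GFP::ALG-5 input. In each of these 3 the GFP::ALG-5 input was intermediate, which the choice of rows favours. miR-85-5p, miR-239b-5p, miR-67-3p, miR-65-5p and miR-48-3p had log2 ratios of -1.68, -1.58, -1.44, -1.12 and -1.01. miR-2214-3p, at -1.48, had 8.00 RPM in alg-5(ram2) and 22.5 RPM in wild type, and its GFP::ALG-5 input level of 7.1 RPM was near the mutant. On the other side, miR-235-3p, which holds progenitor cells quiescent in starved larvae, had 6014 RPM in alg-5(ram2) and 2465 RPM in wild type, a log2 ratio of 1.29 (95% interval 1.27 to 1.30). Its level of 4147 RPM in the GFP::ALG-5 input was again between the genotypes. miR-790-5p, miR-86-3p, miR-235-5p, miR-74-5p, miR-64-3p and miR-791-3p had log2 ratios of 1.34, 1.25, 1.23, 1.12, 1.03 and 1.02.

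The families of timing miRNAs differed by less than 2-fold as sums. The let-7 family, whose members end larval programmes, summed to 2118 RPM in alg-5(ram2) and 2681 RPM in wild type, a ratio of 0.790. let-7-5p had 253 RPM in alg-5(ram2) and 462 RPM in wild type, a log2 ratio of -0.87, and the GFP::ALG-5 input had 326 RPM. The same arm stood at -0.76 for miR-84-5p and -0.27 for miR-48-5p, and at -1.57 (95% interval -2.17 to -1.10) for miR-241-5p, which was below the minimum level with 41 reads in alg-5(ram2) and 125 in wild type. The other arm, miR-241-3p, stood at 0.36. The lin-4 family, which acts earlier, summed to 5906 RPM in alg-5(ram2) and 4883 RPM in wild type, a ratio of 1.21, with 6292 RPM in the GFP::ALG-5 input. lin-4-5p had 2196 RPM in alg-5(ram2) and 1659 RPM in wild type. The family sums thus lay on opposite sides of wild type, and neither reached 2-fold. The lin-4 ratio was near the 1.19 of all miRNAs. Against the GFP::ALG-5 input both families were lower in alg-5(ram2), at ratios of 0.875 for let-7 and 0.939 for lin-4.

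The mir-35 family, which is abundant in oocytes and embryos, summed to 1538 RPM in alg-5(ram2) and 2156 RPM in wild type, a ratio of 0.713, with 1923 RPM in the GFP::ALG-5 input. Adults had far more of it, 28161 RPM in alg-5(tm1163), against 42117, 30012 and 30077 RPM in wild type. Of its 8 tested entries 0 were past 2-fold, and the lowest log2 ratio was -0.85, for miR-36-3p, with 266 RPM in alg-5(ram2) and 480 RPM in wild type. The most abundant miRNA, miR-52-5p, had 49783 RPM in alg-5(ram2) and 35826 RPM in wild type, with 45545 RPM in the GFP::ALG-5 input. The mir-51 family to which it belongs had a sum ratio of 1.37, and the mir-58 family 0.982. Sum ratios of the other families ran between 0.680 for the mir-44 family and 1.56 for the mir-238 family.

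Most 21U RNAs lay below wild type in alg-5(ram2) by a modest factor. Of 183 tested, 154 had a log2 ratio below 0 and the median was -0.38; 17 were past 2-fold lower (9.29%) and 1 higher (0.546%), in all 9.84%. Taken as shares of 21U reads, 5 were lower and 4 higher. Against the GFP::ALG-5 input the median over 171 tested was -0.37, and 3 were past 2-fold, or 1.75%. The input itself had 4 of 212 past 2-fold over wild type, or 1.89%. The ratio of summed levels was 0.786 for the 183 rows of at least 10 RPM, 0.696 for 1511 rows of 1 to 10 RPM and 0.626 for 3692 rows of 0.1 to 1 RPM. Against the GFP::ALG-5 input these ratios were 0.780, 0.770 and 0.751. Reads were found for 5592 21U RNAs in alg-5(ram2) and 6432 in wild type. The class was thus lower at each level of abundance. 21ur-3501 had the lowest log2 ratio, -1.80 (95% interval -2.12 to -1.52), with 5.45 RPM in alg-5(ram2), 19.2 RPM in wild type and 10.2 RPM in the GFP::ALG-5 input. 21ur-5522, the most abundant, had 67.8 RPM in alg-5(ram2) and 113 RPM in wild type, with 108 RPM in the GFP::ALG-5 input. 21ur-4049 went the other way, with 97.1 RPM in alg-5(ram2) and 81.7 RPM in wild type, but its GFP::ALG-5 input had 133 RPM. The highest, 21ur-6064, had 15.2 RPM in alg-5(ram2) and 7.54 RPM in wild type, a log2 ratio of 1.00 (95% interval 0.74 to 1.29). In adults 0 of 768 21U RNAs were past 2-fold between alg-5(tm1163) and wild type library 3, while pairs of adult wild type libraries had 12.2%, 50.5% and 54.3% past 2-fold.

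CSR-1 siRNAs were close to wild type for nearly all target genes. Of 1304 tested, 8 were past 2-fold higher (0.613%) and 3 lower (0.23%), or 0.844% in all, with a median log2 ratio of 0.13. Taken as shares of CSR-1 reads, 5 were higher and 4 lower. Against the GFP::ALG-5 input 5 of 1365 were past 2-fold, or 0.366%, and that input had 8 of 1355, or 0.59%, past 2-fold over wild type. Pairs of adult wild type libraries had 1.12%, 32.5% and 56.7%, and alg-5(tm1163) over wild type library 3 had 1 of 3004, or 0.0333%. hil-5, which codes for a linker histone, was highest: it had 122 RPM in alg-5(ram2), 37.0 RPM in wild type and 44.0 RPM in the GFP::ALG-5 input, a log2 ratio to wild type of 1.72 (95% interval 1.61 to 1.84). The mutant level of hil-5 siRNAs lay apart from both other L4 libraries. For rsr-2, a splicing coactivator, btf-1, a TBP-associated factor, set-16, a histone methyltransferase of the MLL type, and ric-8, a G protein regulator, the GFP::ALG-5 input was near the mutant. btf-1 had 219 RPM in alg-5(ram2) and 85.2 RPM in wild type, with 179 RPM in the GFP::ALG-5 input. set-16 had 163 RPM in alg-5(ram2) and 69.0 RPM in wild type, with 154 RPM in the GFP::ALG-5 input. chd-3, mnk-1 and F52H3.4 completed the higher rows, at log2 ratios of 1.10, 1.07 and 1.06. chd-3 is also listed as a Mutator target with the same values, so it counts as higher in both classes. In all, 27 genes are listed in both siRNA classes.

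The 3 lower CSR-1 rows were nish-1 (F13E9.1) and the yolk protein genes vit-1 and vit-2. nish-1 had 11.8 RPM in alg-5(ram2) and 67.8 RPM in wild type, with 36.4 RPM in the GFP::ALG-5 input. Its gene overlaps F13E9.11, a row of the Mutator table with 10.1 RPM in alg-5(ram2) and 65.1 RPM in wild type, so the counts of these genes are uncertain and may hold the same reads. vit-2 had 10.9 RPM in alg-5(ram2) and 33.7 RPM in wild type, with 21.4 RPM in the GFP::ALG-5 input. vit-1 had 5.70 RPM in alg-5(ram2) and 16.4 RPM in wild type. Adult libraries varied far more for vit-2 siRNAs, with 3.05 RPM in alg-5(tm1163) and 137, 224 and 3.34 RPM in wild type. Of the gene lists, 24 tested small RNA machinery genes, 14 germline sex determination genes and 8 oogenesis and egg genes had 0 rows past 2-fold each among CSR-1 siRNAs, with medians of 0.17, 0.03 and 0.10. glh-4, a P granule helicase gene, had 275 RPM in alg-5(ram2) and 195 RPM in wild type, and mut-14, a Mutator helicase gene, 91.1 RPM in alg-5(ram2) and 66.8 RPM in wild type.

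Mutator siRNAs held the rows with the highest and the lowest ratio of all tested rows. Of 1793 target rows tested, 167 were past 2-fold higher in alg-5(ram2) (9.31%) and 33 lower (1.84%), or 11.2% in all, while the median log2 ratio was 0.03. For adult wild type pairs the share past 2-fold was 2.98%, 2.34% and 1.01%, but the GFP::ALG-5 L4 input already had 7.12% of 1783 rows past 2-fold over the same wild type L4 library, 113 higher and 14 lower. Set against the GFP::ALG-5 input instead, alg-5(ram2) had 77 of 1813 rows higher and 37 lower, or 6.29%. Of the 167 higher rows, 64 were also past 2-fold above the GFP::ALG-5 input, as 18 of the 33 lower rows were below it; these counts share the alg-5(ram2) library. Transposon rows had 0 of 188 past 2-fold, with sums of 27791 RPM in alg-5(ram2) and 28096 RPM in wild type. Of 152 pseudogene rows, 9 were higher and 1 lower. Of the gene lists, 4 spermatogenesis genes and 4 small RNA machinery genes were tested, with 0 past 2-fold each and medians of 0.24 and -0.07. The most abundant rows differed little: a transposon row stood at -0.06, and eri-6, a helicase gene of the ERGO-1 pathway, had 4641 RPM in alg-5(ram2) and 4889 RPM in wild type. siRNA reads can be shared between like targets, and 80 of the 1793 rows had a twin with the same values.

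dyf-3, a gene of ciliated sensory neurons, had the highest Mutator ratio. Its siRNAs had 340 RPM (7489 reads) in alg-5(ram2), 8.18 RPM (178 reads) in wild type and 32.0 RPM in the GFP::ALG-5 input, a log2 ratio to wild type of 5.36 (95% interval 5.16 to 5.60). In adults dyf-3 had 19.5 RPM in alg-5(tm1163), against 17.4, 19.7 and 15.9 RPM in wild type. The alg-5(ram2) library was high alone. The cuticle collagen gene col-111 showed another pattern, with 528 RPM in alg-5(ram2), 29.3 RPM in wild type and 635 RPM in the GFP::ALG-5 input, so that here wild type was low alone. spds-1, the spermidine synthase gene, had 88.9 RPM in alg-5(ram2), 12.4 RPM in wild type and 92.4 RPM in the GFP::ALG-5 input. C46G7.3 had 217 RPM in alg-5(ram2), 872 RPM in wild type and 172 RPM in the GFP::ALG-5 input, with wild type high alone. col-111 and F01F1.3 overlap CSR-1 target genes, so their counts are uncertain. F01F1.3 and T10D4.3 had log2 ratios of 3.35 and 3.62 over wild type, with GFP::ALG-5 input levels of 3.39 and 4.87 RPM near those of wild type. pyk-1, a pyruvate kinase gene, had 87.2 RPM in alg-5(ram2) and 318 RPM in wild type, with 135 RPM in the GFP::ALG-5 input.

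Some Mutator rows differed the same way in both alg-5 alleles, which share no library. Of 1766 rows tested in both, 14 were past 2-fold lower in alg-5(ram2) L4 and in alg-5(tm1163) adults, set against adult wild type library 3; they are 42.4% of the 33 lower rows of alg-5(ram2) and 33.3% of the 42 of alg-5(tm1163). A further 28 rows were higher in both, or 17.0% of 165 and 50.0% of 56, and 2 went opposite ways. In the adult comparison 4.33% of 2377 rows were past 2-fold, 2.52% higher and 1.81% lower. These rows were named after their values were seen. In 13 of the 14 lower rows and 27 of the 28 higher rows the mutant levels lay outside those of all 4 wild type libraries on the side named. This was partly fixed by the choice of rows, which used wild type L4 and adult wild type library 3. Each mutant thus differed from its own reference by selection, and only the remaining comparisons were free to differ. Pearson's r of the log2 ratios over the 1766 rows was 0.49, a description over rows of the same libraries.

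**Figure D4:**
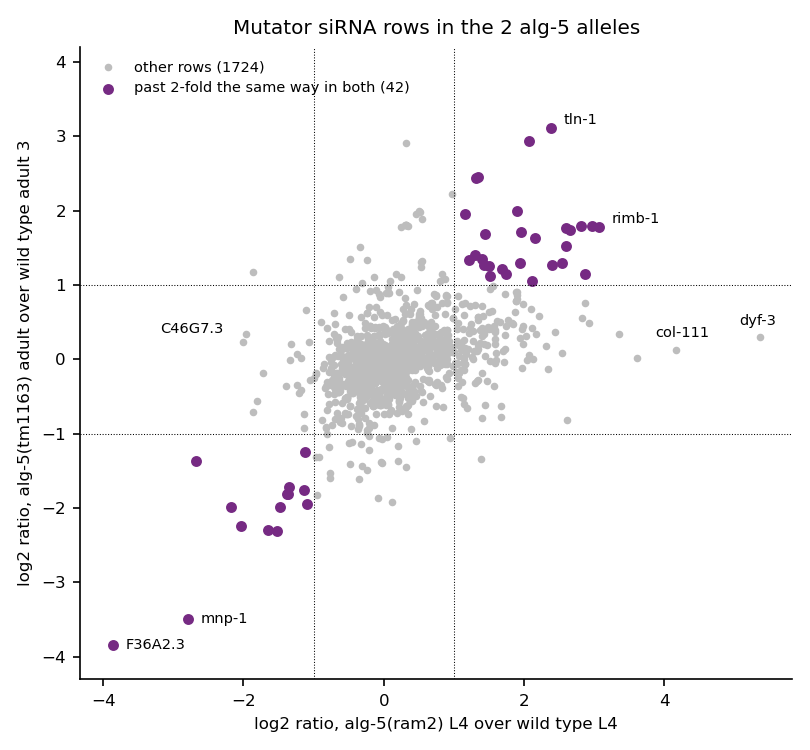
Log2 ratio of 1766 Mutator siRNA rows in alg-5(tm1163) adults over wild type adult library 3 (vertical) and in alg-5(ram2) L4 over wild type L4 (horizontal), with dotted lines at 2-fold. The 42 purple rows are past 2-fold the same way in both; dyf-3 stands at 5.36 in alg-5(ram2) and 0.30 in alg-5(tm1163).

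F36A2.3 had the lowest ratio of these rows in each allele. It had 6.04 RPM in alg-5(ram2) and 89.3 RPM in wild type L4, and 8.67 RPM in alg-5(tm1163), against 115, 91.2 and 126 RPM in adult wild type. The tagged strains were also low, with 9.30 RPM in the GFP::ALG-5 input and 13.8 RPM in the HA::ALG-5 input. For this row the libraries of all 4 strains with an altered alg-5 locus lay below the 4 wild type libraries. F36A2.3 overlaps F36A2.2, a CSR-1 target, so its count is uncertain. mnp-1, which codes for a protein related to aminopeptidases, had 14.7 RPM in alg-5(ram2) and 102 RPM in wild type L4, and 13.3 RPM in alg-5(tm1163), against 134, 154 and 151 RPM in adult wild type. The tagged strains were nearer to wild type here, with 69.5 RPM in the GFP::ALG-5 input and 95.1 RPM in the HA::ALG-5 input. pan-1, a gene for a leucine-rich repeat membrane protein, had 62.8 RPM in alg-5(ram2) and 180 RPM in wild type L4, and 165 RPM in alg-5(tm1163), against 569, 727 and 817 RPM in adult wild type. ida-1, a dense core vesicle gene, C06B8.7, W06A11.4, T07F8.1, T10B5.4, Y54G2A.44, ZC204.14, F22B7.9, F13E9.11, abu-11 and the pseudogene Y50E8A.14 were the other lower rows.

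Among the higher rows, tln-1, which codes for talin, a link between integrins and actin, had 466 RPM in alg-5(ram2) and 88.7 RPM in wild type L4, and 523 RPM in alg-5(tm1163), against 104, 94.8 and 60.7 RPM in adult wild type. tln-1 siRNAs had 90.9 RPM in the GFP::ALG-5 input and 85.7 RPM in the HA::ALG-5 input, so both tagged strains sat with wild type. irx-1, an Iroquois homeobox gene, had 25 RPM in alg-5(ram2) and 5.89 RPM in wild type L4, and 60.7 RPM in alg-5(tm1163), against 9.49, 6.16 and 7.87 RPM in adult wild type. rimb-1, a presynaptic gene listed as tag-168, had 464 RPM in alg-5(ram2) and 55.3 RPM in wild type L4, and 338 RPM in alg-5(tm1163), against 90.5, 88.4 and 98.4 RPM in adult wild type. Its GFP::ALG-5 input was high too, at 315 RPM. The cadherin gene cdh-1 had 364 RPM in alg-5(ram2) and 62.3 RPM in wild type L4, and 154 RPM in alg-5(tm1163), against 86.6, 73.6 and 62.8 RPM in adult wild type. Its levels of 181 RPM in the GFP::ALG-5 input and 349 RPM in the HA::ALG-5 input were above all 4 wild type libraries. cwn-1, a Wnt ligand gene, sup-1, cpr-9, cpi-1, exc-9, sol-2, mab-31, dmsr-6, nlp-40 and col-60 were among the rest. The GFP::ALG-5 input was nearer to alg-5(ram2) than to wild type in 1 of the 14 lower rows and 7 of the 28 higher rows. The HA::ALG-5 input was nearer to alg-5(tm1163) in 7 of the 14 and 4 of the 28.

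**Figure D5:**
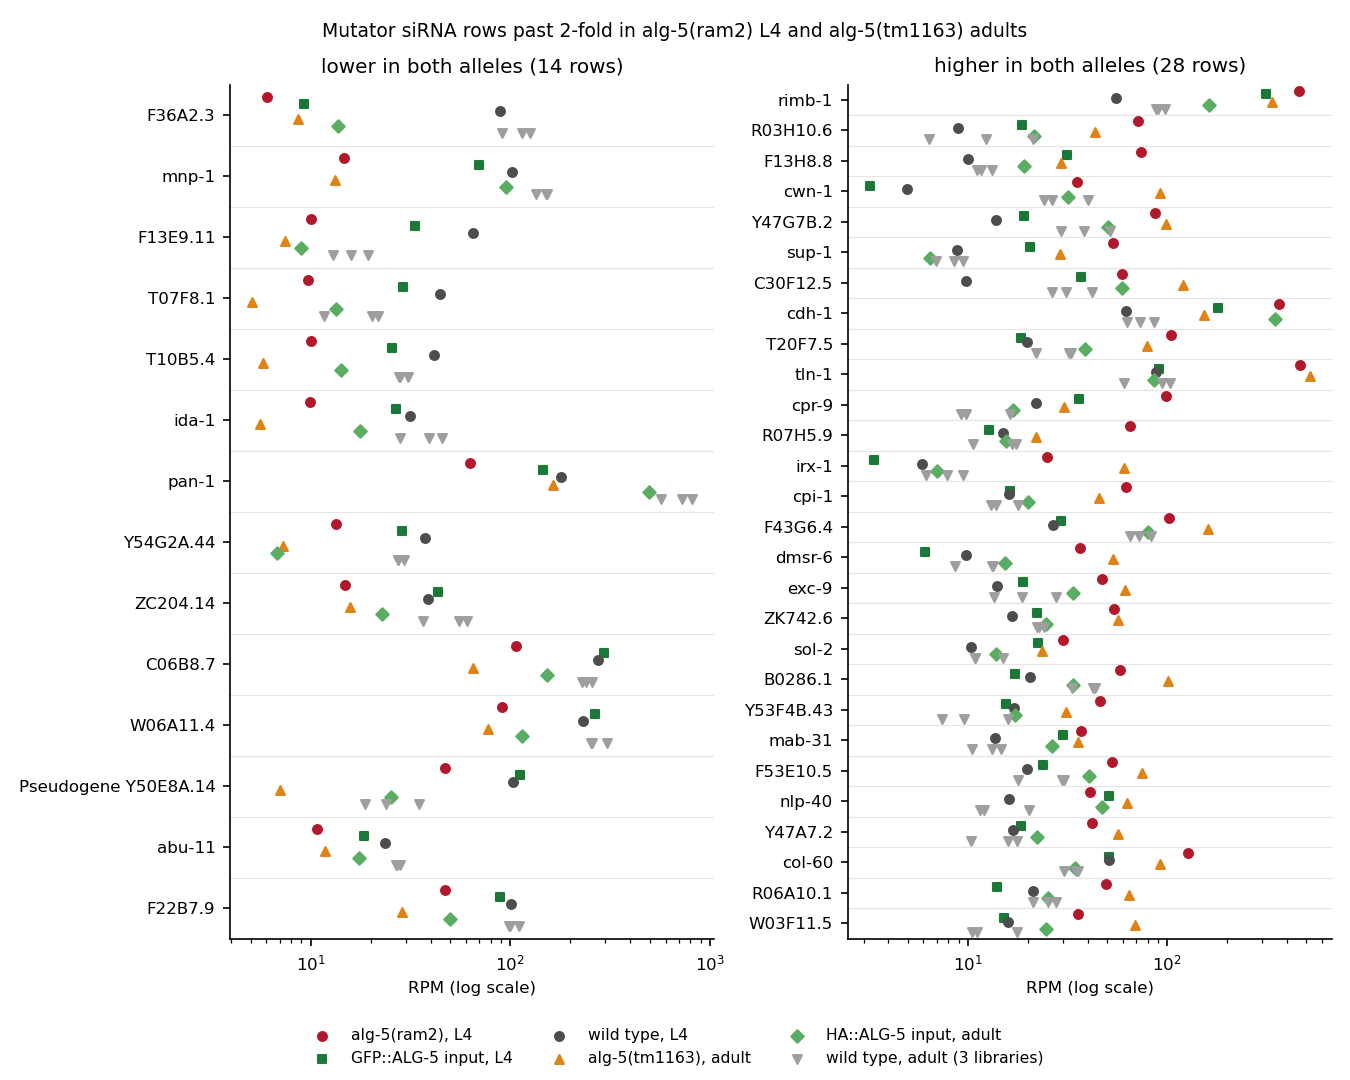
RPM (log scale) in each whole-worm library of the 14 Mutator siRNA rows past 2-fold lower (left) and the 28 past 2-fold higher (right) in both alg-5 alleles, 1 symbol per library. In most rows both mutants stand on one side and the wild type libraries on the other; the tagged strains lie near wild type for mnp-1 and tln-1 and near the mutants for F36A2.3.

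Transcripts of the genes with altered siRNAs were measured in other L4 libraries, 3 of each genotype. Of 15174 genes tested with limma, 44 had an adjusted p under 0.05, or 0.29%. Of the 5008 tested genes in the siRNA tables, 7 were among them, alg-5 itself included. The count for the siRNA tables was 18 without wild type replicate 3 and 4 when the fit held only these 2 genotypes. The count over all genes also depended on the libraries: it was 16 in the fit of these 2 genotypes, 18, 27 and 23 without alg-5(ram2) replicate 1, 2 or 3, and 73 without wild type replicate 3. Of 135 genes with Mutator siRNAs past 2-fold higher and a tested transcript, 1 was called, 13 had an unadjusted limma p under 0.05 and the median log2 difference was 0.00. Of 24 genes with lower Mutator siRNAs, limma called 0, 1 had an unadjusted p under 0.05, 17 had a log2 difference below 0, or 70.8%, and the median was -0.19. The share below 0 was 50.4% for the genes with higher Mutator siRNAs and 53.4% for those past 2-fold in neither direction. For CSR-1 siRNAs, limma called 0 of 8 genes with higher and 0 of 3 with lower siRNAs, with 0 at an unadjusted p under 0.05. Over all genes the unadjusted share was 7.68%.

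The 1 gene with a called transcript and siRNAs past 2-fold was his-31, a histone H4 gene. Its transcript had 20.9, 28.7 and 17.7 FPKM in alg-5(ram2), against 0, 5.07 and 0.822 FPKM in wild type, a log2 difference of 3.37 ± 0.559 (SE, limma adjusted p = 0.0177). The 3 mutant libraries lay above the 3 wild type libraries. The call was lost without any 1 of the alg-5(ram2) libraries or without wild type library 1, at adjusted p between 0.0644 and 0.112. It was also lost with 0.1 FPKM added in place of 1 FPKM (limma adjusted p = 0.0752) and when the fit held only the alg-5(ram2) and wild type libraries (limma adjusted p = 0.145). Mutator siRNAs of his-31 had 53.5 RPM in alg-5(ram2), 18.8 RPM in wild type and 21.4 RPM in the GFP::ALG-5 input. Histone genes have near-identical copies, so how reads were split between them is uncertain for both measures. Of 9 tested histone rows of the Mutator table, his-31 was the 1 past 2-fold. F13A7.11, whose transcript was called lower, had 6.0, 8.33 and 8.32 FPKM in alg-5(ram2), against 52.8, 65.2 and 40.3 FPKM in wild type, a log2 difference of -2.64 ± 0.323 (SE, limma adjusted p = 0.00232). Its Mutator siRNAs had 94.3 RPM in alg-5(ram2) and 54.7 RPM in wild type, a log2 ratio of 0.78 within 2-fold. Besides alg-5, the other called transcripts of the siRNA tables were F58A4.6, lem-3, trmt-10A and xbp-1. lem-3 is a nuclease gene, trmt-10A a tRNA methyltransferase gene and xbp-1 a transcription factor gene of the unfolded protein response. In the order named, the transcripts of F58A4.6, lem-3, trmt-10A and xbp-1 stood at 2.29, -1.28, 1.03 and -0.78 on the log2 scale. Their limma adjusted p values were 0.00629, 0.00232, 0.00470 and 0.0139. The calls of lem-3, trmt-10A and xbp-1 were lost when the fit held only the alg-5(ram2) and wild type libraries, at limma adjusted p of 0.0626, 0.125 and 0.101, and that of xbp-1 also without alg-5(ram2) replicate 1 or 3 or wild type replicate 1 or 2, at 0.0549 to 0.0894.

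The transcripts of the other named rows gave no call. mnp-1 had 5.32 ± 0.863 FPKM in alg-5(ram2), against 6.26 ± 0.865 FPKM in wild type (SD, n = 3 each), with a limma adjusted p of 0.913. F36A2.3 had 40.8 ± 7.41 FPKM in alg-5(ram2), against 39.5 ± 10.2 FPKM in wild type, with a limma adjusted p of 0.994. dyf-3 had 3.46 ± 1.53 FPKM in alg-5(ram2), against 1.92 ± 1.55 FPKM in wild type, with a limma adjusted p of 0.789. hil-5 had 188 ± 9.87 FPKM in alg-5(ram2), against 199 ± 29.8 FPKM in wild type, with a limma adjusted p of 0.958. For each of these 4 genes the libraries of the genotypes overlapped. Of 65 named siRNA rows with a tested transcript, 7 had no overlap without a call. How often this occurred over all tested genes was not counted, so the 7 are not set apart from other genes. F13E9.11, whose siRNAs were lower in both alleles, had the largest difference among the 7. It had 6.27, 4.03 and 4.59 FPKM in alg-5(ram2), against 7.98, 10.5 and 10.5 FPKM in wild type (log2 difference -0.84, limma adjusted p = 0.327). tln-1 transcripts had 42.0 ± 4.28 FPKM in alg-5(ram2), against 39.2 ± 10.9 FPKM in wild type. The long RNA libraries were separate samples from the small RNA libraries, and nothing in the labels says that replicates came from separate cultures, so the p-values measure the spread between these samples only.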

How the data were processed

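RNA between 18 and 28 nt was cut from gels and treated with a phosphatase that lets 22G RNAs be ligated, per the labels' protocols. The authors deposited 4 small RNA tables in RPM (reads scaled to library size) and 1 long RNA table of Cuffdiff FPKM values. Trimmomatic 0.35, TopHat2, HTSeq, DESeq2 and Cuffdiff appear in the submitters' processing notes; the small RNA aligner and genome build are not given in the sources used here. Read totals of 1622092 to 24518714 per library were recovered from the steps of the deposited RPM values: 1 read was taken as the largest step that makes nearly all 21U values whole, and over 99.5% of 21U values of the L4 pair were whole reads within 0.02. siRNA values were often not whole (34.6% to 62.7% were), so their reads, rounded, and intervals are approximate. miRNA entries of 1 name were summed, and in the other classes only the first entry of a name was kept.

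Log2 ratios were formed from the RPM values with 0.1 RPM added, for rows with a mean of at least 10 RPM. The files give 1 small RNA library per group, so no test was made. FPKM values of all 15 long RNA libraries, of 5 genotypes that share 1 estimate of the spread, with a pseudocount of 1 FPKM and genes kept where the mean of any group was at least 1 FPKM, were fitted with limma 3.58.1 in R 4.3.3 without a replicate block, and p-values were adjusted over all 15174 genes tested. The fit was tested on simulated data. Other steps used Python 3.11.15 with pandas 2.3.3, numpy 2.4.6, scipy 1.17.1 and matplotlib 3.10.9.

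Rows named were the 10 highest and 10 lowest miRNAs, 5 at each end of the 21U table and 10 at each end of each siRNA table, the most abundant rows, the let-7, lin-4 and mir-35 families, up to 3 members of each gene list and called transcripts. Members and lists were chosen with earlier results of these data known. Of 6046 names in the siRNA tables, 5573 matched RefSeq, which served for names and for which genes overlap. Alternatives were other scalings, filters, pseudocounts, the GFP::ALG-5 L4 input as the library compared with, fits of fewer libraries and a replicate block.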

Additional observations from a re-analysis of the deposited data

Results flagged for a closer look

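Among the named rows, a pair went in opposite directions in the L4 and the adult comparison, and the difference between the comparisons was not tested. The log2 ratio of cel-miR-239b-5p in alg-5(ram2) L4 minus that in alg-5(tm1163) adults was -2.83. It had 23.3 RPM in alg-5(ram2) and 69.7 RPM in wild type L4, and 68.4 RPM in alg-5(tm1163) against 28.7, 28.4 and 28.7 RPM in adult wild type. For the Mutator siRNA row Y39B6A.41 the same difference was -3.04. Allele and stage cannot be told apart here, since the small RNAs of each allele were measured at 1 stage.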

How the results depend on the processing

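Counts of rows past 2-fold depended on the minimum level. With a mean of 1 RPM, 50 RPM or no minimum, they were 31, 8 and 64 for miRNAs, 411, 0 and 2988 for 21U RNAs and 96, 5 and 184 for CSR-1 targets; for Mutator targets a mean of 50 RPM gave 85 and no minimum 313. Against the GFP::ALG-5 L4 input they were 2, 3, 5 and 114. Scaling each class to its own sum gave 28 miRNAs and 9 21U RNAs, and scaling to the sum of the 4 classes gave 30 21U RNAs. Scaled to that sum, class ratios were 1.08 for miRNAs, 0.650 for 21U RNAs, 1.02 for CSR-1 and, reversed, 0.943 for Mutator siRNAs. Against the GFP::ALG-5 input they were 1.04, 0.761 and, reversed, 0.967 and 0.924. Of 140 named small RNA rows, 24 had the other sign against that input, among them 5 of the 60 past 2-fold: miR-2214-3p (0.17), mnk-1 (-0.22), C46G7.3 (0.33), spds-1 (-0.055) and col-111 (-0.27). The cause was not tested. No paired analysis was possible because each small RNA group has 1 library. For long RNA, alg-5(ram2) and wild type libraries of the same number had correlations of deviations of 0.0582, 0.0272 and 0.0272. Each alg-5(ram2) library correlated best with the wild type library of its own number, and the other direction was not checked. A replicate block gave 10 called genes of the siRNA tables, against 7 without it, and an alg-5 difference of -2.59. Fitting only the alg-5(ram2) and wild type libraries gave 4. Leaving out 1 library gave 5 to 18, the highest without wild type replicate 3, and alg-5 differences of -2.70 to -2.52. Rows with the fewest reads have the widest intervals.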
